A study of Mus musculus with 6 samples.

Results

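Hemoglobin genes and other genes of red blood cells were followed in RNA of the embryonic mouse midbrain. The cells that these transcripts came from were not tested. The group holds 10 named genes of the 26852 genes in the deposited table, found by their Ensembl identifiers and symbols. They are 3 globins of the embryo (Hba-x, Hbb-y and Hbb-bh1), 4 adult globins (Hba-a1, Hba-a2, Hbb-bs and Hbb-bt) and the non-globin genes Alas2, Slc4a1 and Slc25a37. The group was defined by gene identity and not by measured values, although earlier results of these data were known when it was chosen.

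Midbrains were dissected from C57Bl/6 embryos at E14.5, and 3 libraries per genotype were made, each from a pair of pooled embryos. The Lmx1b cKO carried Lmx1b fl/fl with Pitx3-Cre, and the littermate controls carried Lmx1b wt/wt with Pitx3-Cre. Both genotypes therefore carry the Cre allele, which replaces a Pitx3 copy. In the cKO, Lmx1b is deleted only in the Pitx3 positive neurons, whose share of the dissected tissue was not measured. No red cell, endothelial cell or blood progenitor is a stated target of the Cre. The deposited values are means per genotype of read counts divided by a size factor, called normalized counts here. The whole read counts behind each mean were recovered for 26355 genes, all 10 genes of the group included. The libraries are called a, b and c within a genotype, in order of falling size factor, since a recovered library carries a genotype but no sample number. Recovered reads ranged from 20629683 to 25051860 per library.

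Lmx1b itself had normalized counts of 1257, 1401 and 1455 in the cKO and 1368, 1352 and 1474 in the controls. These ranges overlapped, and the log2 fold change was -0.03. This count covers the whole gene in the whole dissected midbrain, so it is no measure of the deletion in Pitx3 positive neurons. There the paper reported a clear loss of Lmx1b by in situ hybridization, with expression kept in other regions. The dissected tissue showed its identity in Nr4a2 and En2, with 778 and 559 normalized counts per kb of exon. Libraries cKO a and cKO c stood apart in collagen genes of bone and mesenchyme. Col1a1 reached 532, 14.8 and 6097 in cKO a, b and c, against 10.6 to 11.5 in the controls. Results with cKO a, cKO c or both left out are given below for some of the results only.

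Hemoglobin is built from pairs of alpha-type and beta-type chains with a heme in each. In the mouse, the alpha-type genes Hba-x, Hba-a1 and Hba-a2 lie together on chromosome 11, and the beta-type genes Hbb-y, Hbb-bh1, Hbb-bs and Hbb-bt lie together on chromosome 7. Primitive red cells arise in the yolk sac and carry the embryonic chains, and definitive red cells from the fetal liver carry the adult chains. From which kind of cell a chain came was not tested, so the shares of chains below are not shares of cells. Both kinds of cell are known to circulate at mid-gestation. Alas2 makes the first intermediate of heme in red cells, Slc25a37 (mitoferrin) brings iron into mitochondria, and Slc4a1 (band 3) is the anion exchanger of the red cell membrane.

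The upstream sequences of the globin genes are shown as a description. A link between them and the patterns over the libraries below was not tested. They were taken from RefSeq promoters on GRCm38.p6, which held 7 of the 10 genes. The window searched was the 130 bases before the RefSeq start, and bases that GENCODE places in an exon were left out of the longer stretches. Capitals mark CACCC on either strand. They also mark CCAAT on either strand. The letters GATAA are marked on either strand as well. The letters TATAA are marked on the printed strand only. Hbb-y is shown at chr7:103853217-103853337, minus strand, and Hba-a2 at chr11:32296362-32296488, plus strand.
Hbb-y: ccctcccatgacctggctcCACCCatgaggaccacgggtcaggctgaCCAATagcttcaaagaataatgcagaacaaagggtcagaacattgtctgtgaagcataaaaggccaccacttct
Hba-a2: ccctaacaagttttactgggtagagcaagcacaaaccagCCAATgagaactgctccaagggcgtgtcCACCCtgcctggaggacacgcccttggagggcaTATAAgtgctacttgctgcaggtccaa

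For Hba-x, Hbb-bs and Hbb-bt, 30 bases around the CACCC letters are given. They lie before the RefSeq start, but GENCODE places 30 of the 30 bases of Hba-x, 19 of Hbb-bs and 2 of Hbb-bt in an exon. Hba-x lies at chr11:32276493-32276522 on the plus strand, Hbb-bs at chr7:103828001-103828030 and Hbb-bt at chr7:103813995-103814024 on the minus strand.
Hba-x: GATAAcaggctcCACCCtgcaagccccctc
Hbb-bs: tccgtagagccaCACCCtggtaagggccaa
Hbb-bt: cctgcagggtaaCACCCtggcATTGGccaa

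CACCC occurred in all 7 windows, including that of Alas2, and in 33.7% of the 32851 promoters in the RefSeq table. CCAAT occurred in Hbb-y and the 4 adult globins and was not found in Hba-x, beside 22.4% of all windows. TATAA occurred in Hba-x and the 4 adult globins and was not found in Hbb-y, beside 9.07% of all windows. GATAA occurred in Hba-x and Alas2, beside 11.4% of all windows. Hba-a1 and Hba-a2 share a run of 247 of the 250 upstream bases, whereas the longest run shared by Hbb-bs and Hbb-bt was 14 bases. The embryonic pair Hba-x and Hbb-y shared a run of at most 10 bases.

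Globin transcripts were measured in every library. The 7 globins together held 0.0497% of the normalized counts on genes in the cKO means and 0.0428% in the control means, from the authors' means. Per kb of exon and averaged over the 6 libraries, Hbb-y was highest at 5786 ± 1726 normalized counts (SD, n = 6). Hbb-bs followed at 5244 ± 940, Hba-a1 at 4501 ± 727 and Hbb-bt at 3180 ± 724. Each of these overlaps its neighbour in the order within the SD. Hba-a2 lay at 1171 ± 352, Hba-x at 529 ± 177 and Alas2 at 145 ± 24.0, each apart from its neighbours. Hbb-bh1 at 62.8 ± 38.6 and Slc25a37 at 60.3 ± 10.7 were not separable, and Slc4a1 was lowest at 23.8 ± 4.39.

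These levels per kb understate the adult chains, because reads that fit several places were set aside in the counting. Of all stretches of 50 bases in its longest coding transcript, Hba-a2 shared 86.9% with Hba-a1, and Hba-a1 shared 67.5% with Hba-a2. Hbb-bs and Hbb-bt shared 65.8% and 58.3% with each other. The split between such paralogs is therefore uncertain. Hba-x, Hbb-y, Hbb-bh1 and Slc4a1 shared no stretch of 50 bases with another gene.

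**Figure D1:**
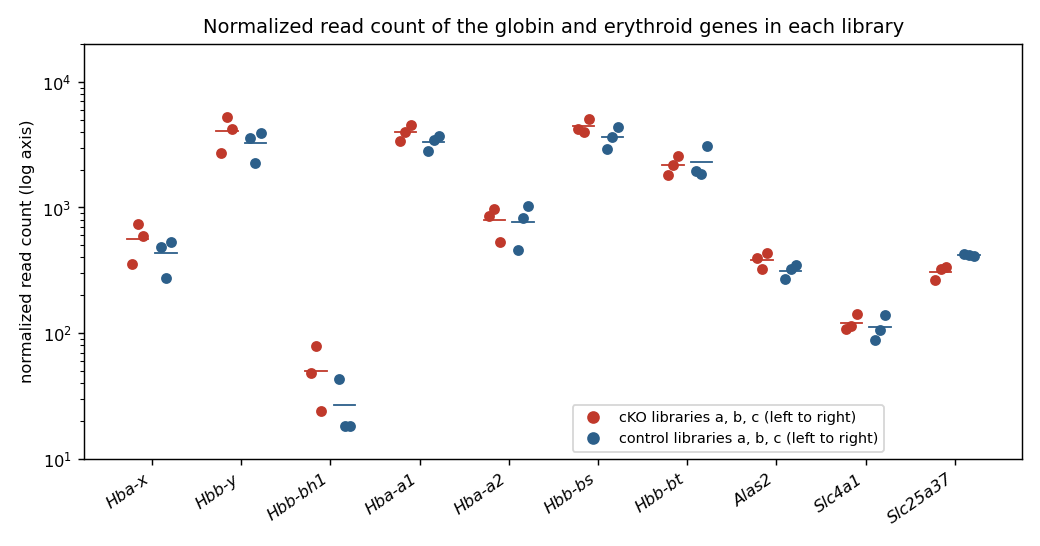
Normalized read count (log axis) of the 10 genes in the 3 cKO and the 3 control libraries, with a bar at each group mean. Only Slc25a37 had libraries of the genotypes that do not overlap, with 266 to 338 in the cKO and 408 to 430 in the controls.

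Among the embryonic chains, Hbb-y encodes an embryonic beta-type chain. Libraries a, b and c had 2706, 5284 and 4235 normalized counts in the cKO and 3561, 2245 and 3942 in the controls. cKO b and cKO c lie above all controls, and cKO a lies below control a and control c, so the groups overlap. By limma, the cKO differed from the control by a log2 fold change of 0.31 ± 0.23 (SE, n = 3 and 3), with an adjusted p of 1.00 and an exact permutation p of 0.4, two-sided.

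Hba-x, the embryonic alpha-type chain, had 354, 736 and 594 in the cKO and 480, 277 and 535 in the controls. Its groups overlapped in the same way, with cKO b highest and control b lowest. Its log2 fold change was 0.36 ± 0.27 (SE, n = 3 and 3), with an unadjusted limma p of 0.211 and an adjusted p of 1.00.

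Hbb-bh1, the third embryonic chain, was scarce, with 47.8, 79.2 and 23.8 in the cKO and 43.4, 18.3 and 18.4 in the controls. Counting error alone gives a coefficient of variation of 16.0% at this depth, and the libraries of a genotype varied by 55.3% and 54.3%. Its log2 fold change was 0.84 ± 0.50 (SE, n = 3 and 3), with an adjusted limma p of 1.00. Its 95% interval ran from -0.24 to 1.93, the widest of the 10 genes.

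Among the adult chains, Hba-a1 had 3370, 4019 and 4560 in the cKO and 2833, 3468 and 3680 in the controls. Its cKO mean was 3983 ± 596 and its control mean 3327 ± 441 (SD, n = 3). The groups overlapped, since cKO a lies below control b and c. For Hba-a1, the log2 fold change was 0.26 ± 0.11 (SE), with an unadjusted limma p of 0.0386 and an adjusted p of 1.00, and the exact permutation p was 0.3.

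Hbb-bs, the adult beta-type gene with more counted reads, had 4238, 3951 and 5064 in the cKO and 2928, 3626 and 4357 in the controls. Control c lies above cKO a and cKO b. For Hbb-bs, the log2 fold change was 0.30 ± 0.12 (SE, n = 3 and 3), with an unadjusted limma p of 0.0323, an adjusted p of 1.00 and an exact permutation p of 0.3.

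The remaining adult chains ordered the libraries differently. Hbb-bt had 1804, 2185 and 2548 in the cKO and 1938, 1831 and 3106 in the controls, with control c the highest of all. Its log2 fold change was -0.04 ± 0.17 (SE). Hba-a2 had 861, 972 and 535 in the cKO and 456, 830 and 1034 in the controls, and its log2 fold change was 0.10 ± 0.27 (SE). Both had an adjusted limma p of 1.00.

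Of the non-globin genes, Alas2 had 396, 325 and 433 in the cKO and 272, 322 and 349 in the controls. cKO b lies among the controls, and the other cKO libraries lie above them. The log2 fold change was 0.30 ± 0.14 (SE, n = 3 and 3), with an unadjusted limma p of 0.0559 and an adjusted p of 1.00. Apex2, on the opposite strand, shares 311 exon bases with Alas2, and the library kit does not mark the strand. Apex2 had a log2 fold change of -0.01.

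Slc4a1 had 108, 113 and 143 in the cKO and 87.6, 106 and 140 in the controls. Control c sits beside cKO c, and the groups overlap. Its log2 fold change was 0.15 ± 0.22 (SE, n = 3 and 3), with an adjusted limma p of 1.00.

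Slc25a37 was lower in the cKO. It had 266, 322 and 338 in the cKO and 430, 415 and 408 in the controls, so every control library lies above every cKO library. The cKO mean was 309 ± 37.7 and the control mean 418 ± 11.1 (SD, n = 3), a ratio of 0.739. The log2 fold change was -0.45 ± 0.12 (SE), with an unadjusted limma p of 0.00289 and an adjusted p of 1.00. The exact permutation p was 0.1, the smallest that 3 against 3 libraries can give. With cKO a left out the log2 fold change was -0.34, and with cKO c left out it was -0.52. With cKO a and cKO c both left out it was -0.38, from the single library cKO b against the 3 controls. Slc25a37 shared 8.07% of its 50-base stretches with transcripts of other genes, of which Gm16867 had at most 16.2 normalized counts in a library. On the opposite strand, Gm31748 shares 381 exon bases with Slc25a37 and Gm27223 shares 92. The library kit does not mark the strand, and the part of these genes in the Slc25a37 counts was not tested.

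**Figure D2:**
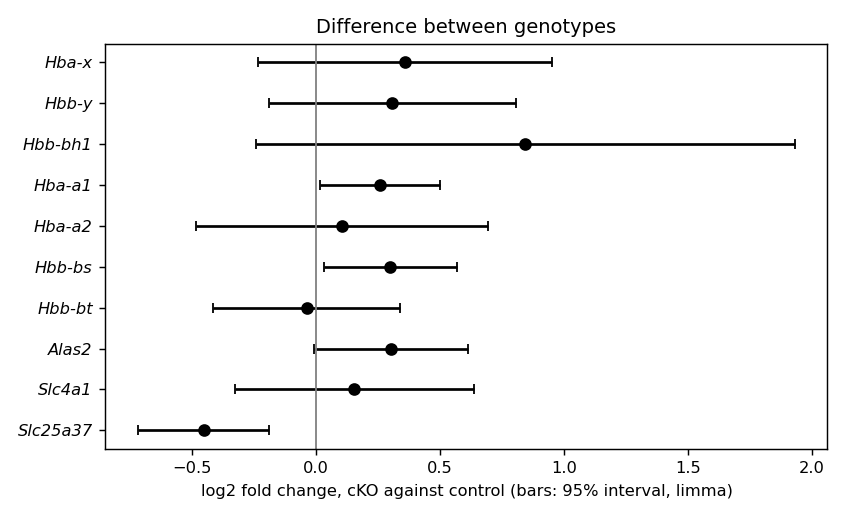
Log2 fold change of the cKO against the control for the 10 genes, with 95% intervals from limma. The interval lies above 0 for Hba-a1 and Hbb-bs, below 0 for Slc25a37, and spans 0 for the other 7 genes, before any adjustment.

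By limma, 0 of the 10 genes had an adjusted p under 0.05, where 0% of the 16680 genes tested did. At an unadjusted p under 0.05 there were 3, of which 2 were higher and 1 was lower in the cKO, where 2.79% of all tested genes passed. With limma-trend in place of voom weights, these counts were again 3 unadjusted and 0 adjusted. In 1 of the 10 genes, Slc25a37, the libraries of the genotypes did not overlap, against 7.67% of all tested genes. The genes were measured in the same libraries and are not independent of each other. The cKO mean was higher for 8 genes and lower for 2, and the median log2 fold change was 0.28, beside a median of 0.00 over all tested genes. In bulk RNA, a different number of red cells and a different amount of RNA per red cell cannot be told apart.

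The calls of Hba-a1 and Hbb-bs changed with the library left out. Without control a, the log2 fold changes were 0.14 and 0.15, with unadjusted limma p-values of 0.190 and 0.171. Without cKO c, which had the collagen counts, they were 0.16 and 0.20, with p-values of 0.174 and 0.142. Hba-a1 had an unadjusted p of 0.0934 without cKO b, and Hbb-bs had 0.0518 without control b. Leaving out cKO a gave 0.38 for Hba-a1 and 0.33 for Hbb-bs, with unadjusted limma p-values of 0.00268 and 0.0392. Leaving out control c gave 0.33 for Hba-a1 and 0.43 for Hbb-bs, with p-values of 0.0208 and 0.00315. With cKO a and cKO c both left out, which leaves cKO b alone against the controls, Hbb-bs was at 0.15 and Hba-a1 at 0.29. The part of the collagen-rich tissue in these values was not tested.

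Other genes passed the unadjusted threshold only with a library left out. Without cKO a, Hba-x and Hbb-y had log2 fold changes of 0.68 and 0.59, with unadjusted limma p-values of 0.00860 and 0.00725. With cKO c left out as well, they stood at 0.84 and 0.75. Both values then rest on cKO b alone, so no p is given. Hbb-bh1 had 1.27 without cKO c (p of 0.0144), 1.28 without control a (p of 0.0491) and 1.65 with cKO a and cKO c both left out. Alas2 had 0.41 without cKO b (p of 0.0150), 0.38 without control c (p of 0.0425) and 0.07 with cKO a and cKO c both left out. The adjusted p of each stayed at 0.978 or above in every fit that tested it. Hbb-bh1 fell outside the fit with a minimum mean of 50.

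For Hbb-y and Hba-x, the SD between libraries of either genotype exceeded the difference between genotype means. Hbb-y and Hba-x ranked all 6 libraries in the same order, with cKO b highest and control b lowest. For every 100 Hbb-y reads there were 13.09, 13.94 and 14.03 Hba-x reads in the cKO and 13.49, 12.32 and 13.56 in the controls. This ratio stayed within 1.14-fold while Hbb-y itself spanned 2.35-fold and Hba-x 2.66-fold.

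The likeness of a pair of genes was measured as the root mean square difference of log2(normalized count + 1) over the 6 libraries, after each gene was centred on its own mean. For Hba-x, the most similar of 16679 other genes was Hbb-y, and for Hbb-y it was Hba-x, at a difference of 0.06. They lie on different chromosomes. Hbb-bh1, at 0.69 from Hbb-y, did not follow it closely, and its ratio ran from 0.466 to 1.77 reads per 100 Hbb-y reads.

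**Figure D3:**
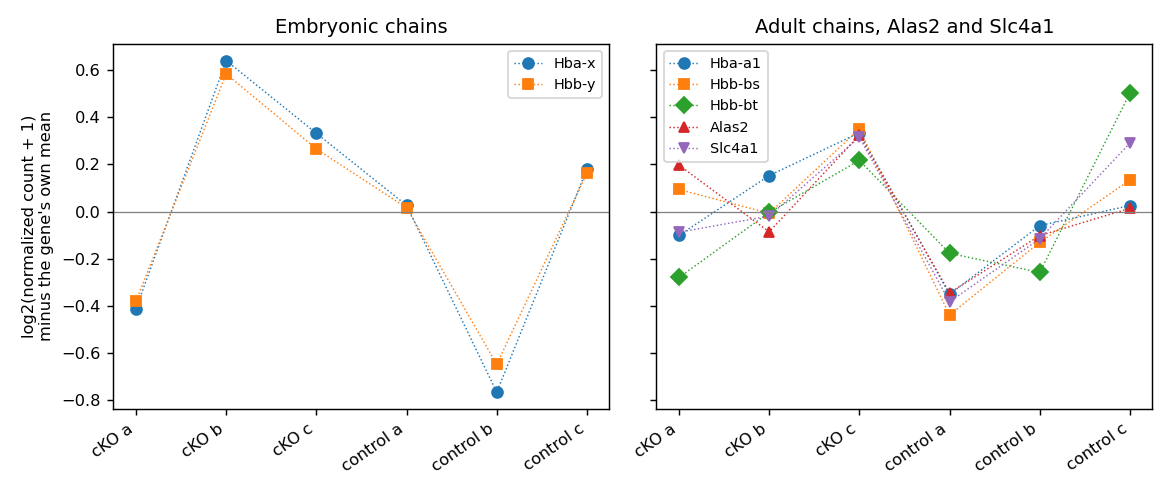
Log2(normalized count + 1) minus the mean of the gene in each of the 6 libraries, which have no order within a genotype. Hba-x and Hbb-y coincide, with cKO b at the top and control b at the bottom, while Hba-a1, Hbb-bs, Alas2 and Slc4a1 are lowest in control a.

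A second set of genes varied together. For Hbb-bs, Alas2 was the 2nd, Slc4a1 the 6th and Hba-a1 the 15th most similar of 16679 genes, at differences of 0.08, 0.10 and 0.12. From the side of Slc4a1, Hbb-bs ranked 6, Hba-a1 37 and Alas2 174. From the side of Alas2, Hbb-bs ranked 7, Hba-a1 243 and Slc4a1 375. From the side of Hba-a1, Hbb-bs ranked 50, Slc4a1 87 and Alas2 274, so Hbb-bs was the nearest of the set for each of the other genes in it. Alas2 gave 8.01 to 9.35 reads per 100 Hbb-bs reads, with a mean of 8.71 ± 0.575 in the cKO and 8.72 ± 0.649 in the controls (SD, n = 3). Relative to Hbb-bs, Alas2 thus had almost equal means, well inside the SD of either genotype. Hba-a1 gave 90.4 ± 11.1 and 92.3 ± 6.80 reads per 100 Hbb-bs reads in cKO and control (SD, n = 3). Slc4a1 gave 2.74 ± 0.174 and 3.04 ± 0.161, and here the libraries of the genotypes did not overlap, at a ratio of 0.901. The counting error of Slc4a1 alone is 9.30%.

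Hba-a2 and Slc25a37 lay farther from this set, and Hbb-bt stood between. Hbb-bt lay 0.25 from Hbb-bs and ranked 5077 among the genes most like it, but it lay 0.16 from Slc4a1, where it ranked 142. It made up 29.9% to 35.6% of the Hbb-bs and Hbb-bt reads in the cKO and 33.6% to 41.6% in the controls. The share of Hba-a2 in the reads of Hba-a1 and Hba-a2 was 10.5% in cKO c and 13.9% in control a, against 19.3% to 21.9% in the other 4 libraries. These shares carry the uncertainty of near-identical paralogs. Slc25a37 was at least 0.33 from every other gene of the group.

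**Figure D4:**
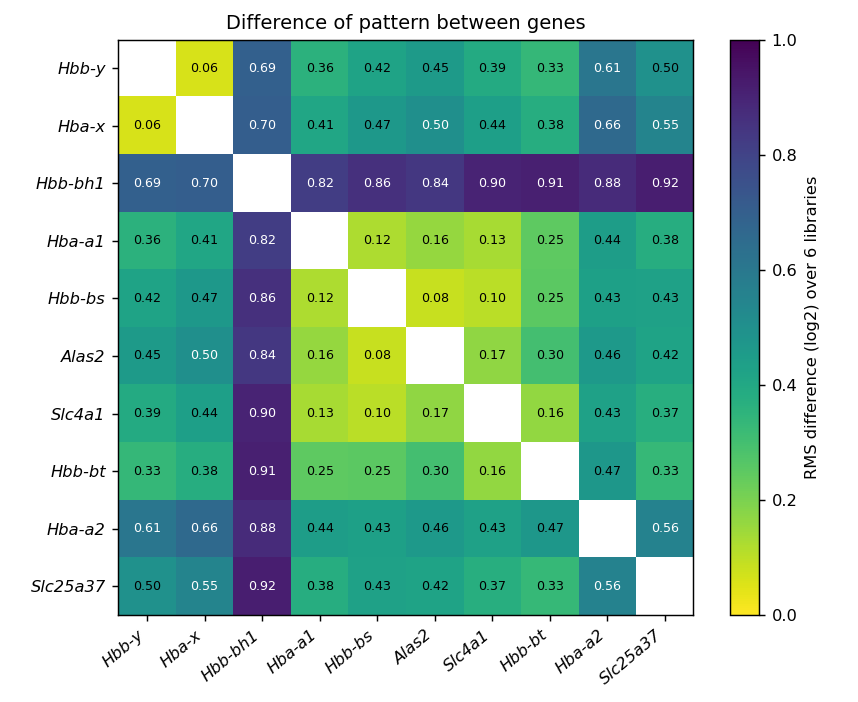
Root mean square difference of the centred log2 values over 6 libraries for each pair of the 10 genes (lighter is more alike). The pair Hbb-y and Hba-x is at 0.06, the block of Hba-a1, Hbb-bs, Alas2 and Slc4a1 lies between 0.08 and 0.17, and Hbb-bh1 is at 0.69 or more from every gene.

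The balance of embryonic and adult chains differed between libraries within a genotype. Embryonic chains (Hbb-y and Hbb-bh1) made up 31.3%, 46.6% and 35.9% of beta-type reads in cKO a, b and c and 42.6%, 29.3% and 34.7% in the controls. The Wilson 95% interval of the highest, cKO b, ran from 45.7% to 47.6%, and that of the lowest, control b, from 28.3% to 30.3%. These intervals cover counting error only. As levels the shares are too high, since reads shared by Hbb-bs and Hbb-bt were set aside while Hbb-y and Hbb-bh1 lost none that way. The mean was 37.9% ± 7.87 in the cKO and 35.5% ± 6.66 in the controls (SD, n = 3), a difference of 2.43 percentage points that is smaller than the spread between libraries. Without cKO b the difference was -1.92 and without control b -0.67, so its sign depends on single libraries. No test was made of this share.

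The alpha-type genes, whose embryonic share is raised in the same way by the reads that Hba-a1 and Hba-a2 share, also differed between libraries. Hba-x was 7.72%, 12.9% and 10.4% of alpha-type reads in the cKO and 12.7%, 6.05% and 10.2% in the controls. cKO b and control a had the most embryonic chains and control b the least in both families. The means were 10.3% ± 2.57 and 9.66% ± 3.38 (SD, n = 3). Per kb of exon, embryonic chains were 41.8% ± 8.04 of the beta type in the cKO and 39.2% ± 6.87 in the controls.

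**Figure D5:**
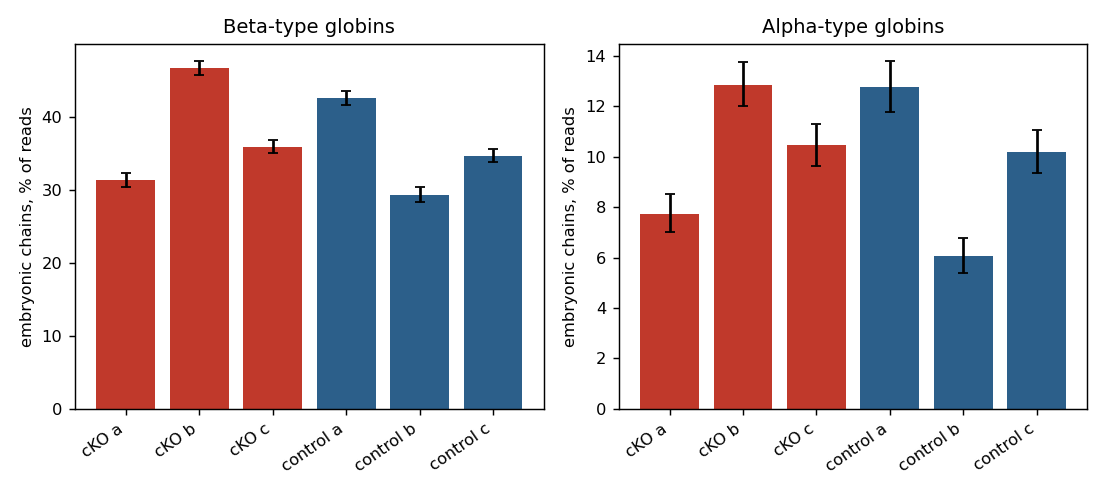
Share of embryonic chains among beta-type (left) and alpha-type (right) globin reads in each library, with Wilson 95% intervals for counting error. Both shares are highest in cKO b and control a and lowest in control b, and the genotypes overlap.

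The sum of the 7 globins was 13381, 17227 and 17560 normalized counts in the cKO and 12239, 12295 and 16672 in the controls. cKO a lies among the controls, and control c lies near the higher cKO libraries. The mean was 16056 ± 2323 in the cKO and 13735 ± 2543 in the controls (SD, n = 3), a difference smaller than either SD. The embryonic sum spanned 2.40-fold over the libraries and the adult sum 1.56-fold.

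The globins were among the more variable genes of their level. Within 1.5-fold of the mean of Hbb-y there were 2268 other genes, of which 2 deviated from their own mean by as much as Hbb-y, 0.41 on the log2 scale, and the median was 0.06. For Hba-x this held for 10 of 2405 genes, for Hbb-bs for 11 of 2132 and for Hba-a1 for 20 of 2269. Hbb-bh1 stood out less, with 79 of 1461 genes. Alas2 was exceeded or equalled by 250 of 2138 genes of like level. For Slc4a1, 628 of 1466 genes deviated as much, so its spread was ordinary for its low counts.

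Genes in 6 further lists of globins, heme, iron and red cells were next examined, not all of them particular to red cells. Of 47 tested genes, 0 had an unadjusted limma p under 0.05, where 2.79% of all tested genes did. In the heme synthesis list, the 8 enzymes beside Alas2 had a median log2 fold change of -0.01, with 0 genes passing in either direction. Alad and Uros, the most abundant per kb, stood at log2 fold changes of -0.08 and -0.09. These enzymes serve heme synthesis in every cell. Among the 15 genes of heme and iron transport the median was -0.04, with Fth1 at -0.03. Ftl1, the light chain of ferritin, ran from 99.3 in cKO a to 3297 in cKO c, and its log2 fold change was -0.67 ± 0.94 (SE, n = 3 and 3). Its means go the other way, at 1876 ± 1628 in the cKO and 1504 ± 889 in the controls (SD, n = 3). Without single libraries the log2 value ran from -1.61, without cKO c, to 1.02, without cKO a, so no direction can be read from Ftl1.

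Of 15 red cell membrane genes, 9 were tested and the median was 0.02. Epb41 and Dmtn, which neurons also express, stood at 0.04 and -0.03. Rhag, Rhd, Epb42, Kel and Icam4 had at most 10 reads in a library and were not tested.

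Of the regulators, some were nearly absent. Gata1 and Klf1, the main erythroid transcription factors, chosen for mention after their values were known, had at most 6 and 13 reads in a library. Tal1 and Ldb1, which are also known from neurons, were abundant and stood at log2 fold changes of -0.07 and 0.08. The median over the 7 tested factors was -0.07. Hemgn, Car1 and Fam132b of the maturation list had at most 7 reads in a library, while Bpgm and Xpo7 stood at -0.01 and 0.01. The 6 tested genes of that list had a median of 0.00 and ran from -0.10 to 0.71, the last being Trim10 (SE of 0.52), named after its values were known. Of the globins of other tissues, Cygb stood at -0.06 and Ngb at -0.10.

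Lists of other cells in blood and vessel walls had summed counts that overlapped between the genotypes. Over the endothelial list, the summed count ran from 6781 to 7094 in the cKO and from 6476 to 7151 in the controls, with a median log2 fold change of 0.03, and Cldn5 and Kdr stood at -0.06 and 0.03. The pericyte list had 8898 to 9167 and 8786 to 9202, with a median of 0.05, Rgs5 at 0.08 and Notch3 at -0.16. Notch3 was the 1 gene of the 6 whose libraries did not overlap, lower in the cKO, against 7.67% of all genes tested. The microglia and macrophage list had 980 to 1024 and 996 to 1115, with a median of -0.20, 9 of 12 genes below 0, C1qb at 0.16 and C1qa at -0.13. In 2 of its genes, Lyz2 (-0.48) and Trem2 (-0.32), named after their values were known, the cKO libraries lay below all controls, beside 7.67% of tested genes whose libraries did not overlap in either direction. The platelet and megakaryocyte list had 472 to 617 and 497 to 658, with a median of 0.00 over its 2 tested genes. Its Pf4 and Ppbp had at most 3 and 6 reads in a library, and Gp1bb and Itga2b stood at -0.09 and 0.09. In these 4 lists 0 genes had an unadjusted limma p under 0.05, where 2.79% of all tested genes did.

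The bone and mesenchyme list was higher in the cKO for all 8 genes, with a median log2 fold change of 1.80. Its sum was 2464, 846 and 14141 in cKO a, b and c and 815 to 963 in the controls. Col3a1 was the member with an unadjusted limma p under 0.05, at 1.84, where 2.79% of all tested genes passed. Col1a1 and Col1a2 stood at 5.00 and 1.76. cKO b, whose bone and mesenchyme sum lies within the control range, had the highest Hbb-y and Hba-x of all libraries. cKO c, with the highest bone and mesenchyme sum, had the highest Hba-a1, Hbb-bs, Alas2, Slc4a1 and summed globins, and a link between these values was not tested. In the midbrain list, En1, En2, Pax5 and Pitx3 passed the unadjusted p, at -0.40, -0.46, -0.33 and -0.41, and Nr4a2 was at -0.08. Of all tested genes 2.79% passed, and 0 genes of this list had an adjusted p under 0.05. With single libraries left out, the unadjusted limma p reached 0.108 for Pax5 and 0.210 for Pitx3. Of the neuron list only Snap25 had recovered counts, at 0.06.

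The 10 genes outside the group most like the summed globins over the 6 libraries were Gm42748, Sh3tc2, Rnf113a1, Ebp, Pabpc4l, Hadhb, Exoc3l2, Nr6a1os, Orai3 and Pcsk2os1. Their differences ran from 0.06 to 0.09 on the log2 scale. Gm42748 had 70.3, 84.5 and 95.2 in the cKO and 62.8, 61.5 and 81.0 in the controls. None of the 10 belongs to a red cell or blood list used here, and with 6 libraries such likeness among 16680 genes is a description only.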

How the data were processed

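RNA was sequenced from 3 Lmx1b cKO and 3 control libraries of E14.5 midbrain. The submitters' processing notes name TopHat 1.0.14, Bowtie2 2.1.0, HTSeq 0.6.1p1, DESeq 1.10.1 and GRCm38.p4, without their roles, while the paper's methods name DESeq2. The deposited signal is a mean over libraries of read counts divided by size factors, and the deposited ratio, log2 ratio and p-value columns of the authors' comparison were not used. Of the mean counts, 31.8% lie on 3 lines that name no gene, reads with several alignments among them.

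Each mean was searched for the whole counts that produce it, up to 30000 reads per genotype, which gave 26355 of 26852 genes (98.1%), with 69.5% of the normalized counts on genes. The recovery was tested on simulated data. Size factors matched those recomputed within 0.140%. p-values measure the spread between libraries of pooled embryos.

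Genes with a mean of at least 10 (16680) entered a voom-weighted fit in limma (version 3.58.1, R 4.3.3), with genotype as the term, size factors as offsets and Benjamini-Hochberg adjustment over all of them. No count test was run on the recovered counts. The script was tested on simulated data. Single genes were compared by an exact permutation test in scipy 1.17.1, whose two-sided p cannot go below 0.1. Positions, exon lengths and transcripts came from GENCODE M21 and symbols from its gene names. Alternatives were other scalings, minimum means and weights, a pseudocount of 10 and each library left out. Leaving out cKO a and c together was added after seeing the data.

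The 10 genes and the lists were chosen with earlier results of these data known. Named genes of a list are those with an unadjusted p under 0.05 and the 2 highest per kb; the 10 nearest genes were named by likeness of pattern. Hbb-bh2, Gfi1b and Ahsp were not analysed here. Fam132b was matched through a later symbol. Genes over the search limit, such as Tubb3 and Map2, have no value per library.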

Additional observations from a re-analysis of the deposited data

How the results depend on the processing

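Recomputed size factors, total scaling, a minimum mean of 50, all recovered genes and limma-trend kept 3 of the 10 genes at an unadjusted p under 0.05. Leaving out a library gave 2 to 5 of the 10, with 5 without cKO a, where 2.00% to 3.81% of all tested genes passed (2.87% without cKO a), and 2 (without control c) to 11 (without cKO b) list genes in place of 5, with 9 without cKO c and 3 without control b. With cKO a and c both left out, a choice made after seeing the data, 5 of the 10 passed, where 3.20% of all tested genes did, cKO b being taken to vary like the controls, and the difference in embryonic beta-type share was 11.1 percentage points in place of 2.43, resting on cKO b alone. Without a library, that difference ran from -1.92 to 5.95, and the log2 ratio of summed globins from 0.15 to 0.39. Over the libraries left out, the log2 fold change turned for Hba-a2 (-0.26 without control a to 0.35, also -0.06 without cKO b), Hbb-bt (-0.18 to 0.19 without control c, also 0.10 without cKO a) and Slc4a1 (-0.015 without control a to 0.32). The causes were not tested. The smallest adjusted p of the 10 genes over 13 fits was 0.978. With a pseudocount of 10, 7 of the 10 nearest genes were the same. The deposited headers number the libraries alike in both genotypes, and whether this marks a pairing is not stated. No paired analysis was possible because the recovered libraries carry no sample number, so the p-values take no account of a pairing. Counting error was largest for Hbb-bh1, at 16.0%, which is below its spread between libraries. Differences in the regulators with few reads were not detectable at this depth.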
